A study of Mus musculus with 22 samples.

Results

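The interleukin and interleukin receptor genes were taken as every probe whose single gene symbol begins with Il followed by a digit, which gave 168 probes of 76 genes among 43379 probes of 19087 named genes. They were followed in spinal cord segments of 1.5 cm centred on the lesion in 2 kinds of adult female C57BL/6 mice. IκBα-dn mice (the transgenic, TG, group of the labels) carry a truncated, dominant-negative IκBα driven by the GFAP promoter, which blocks NF-κB in astrocytes, and their wild-type (WT) littermates lack it. The array's probe for the endogenous gene does not check the transgene. Both were naive or examined 3 days, 3 weeks or 6 weeks after a moderate contusion at T9. Each 2-colour array set the RNA of 1 mouse, labelled with Cy5, against that of another, labelled with Cy3. Of 22 arrays, 10 held both genotypes at 1 time (3 for naive mice, 2 each for 3 days and 3 weeks, and 3 for 6 weeks) and 11 held 2 times of 1 genotype. The remaining array carries conflicting times for 1 WT mouse and was left out. Each group then held 3 mice except WT at 3 weeks, which held 2.

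Interleukins are secreted cytokines, and most of them act through paired receptor chains of which one binds the ligand and the other is shared between several ligands. IL-1 and its relatives signal through MyD88 to NF-κB, whereas the receptors of the IL-6, IL-10 and common gamma chain groups signal through Janus kinases and STAT factors. In the injured spinal cord IL-1β is known as an early product of microglia and infiltrating leukocytes, and several members, Il1b and Il6 among them, are textbook NF-κB targets. In RNA of a whole segment, fewer cells of a type and less RNA per cell cannot be told apart.

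RefSeq start-site sequences were at hand for 59 of the 76 genes. The 250 bases before the start are printed for 3 members that were higher in IκBα-dn cords at 6 weeks (Il1b, Il1r1 and Il1rl2) and for Il6, which was higher than naive on 4 of 10 probes at 3 days in IκBα-dn mice, since NF-κB is what the transgene blocks. They are on build GRCm38.p6, 5′ to 3′ on the strand of the gene. Capitals mark matches on either strand to the κB pattern (GGG, any 5 bases, CC), the AP-1 pattern TGANTCA or the STAT pattern TTCNNNGAA.
Il1b, chr2:129371140-129371389, minus strand: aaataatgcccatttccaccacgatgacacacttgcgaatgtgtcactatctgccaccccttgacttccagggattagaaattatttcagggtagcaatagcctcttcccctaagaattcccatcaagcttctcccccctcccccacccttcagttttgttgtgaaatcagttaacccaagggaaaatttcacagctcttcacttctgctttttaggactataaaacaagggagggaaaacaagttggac
Il1r1, second start, chr1:40266336-40266585, plus strand: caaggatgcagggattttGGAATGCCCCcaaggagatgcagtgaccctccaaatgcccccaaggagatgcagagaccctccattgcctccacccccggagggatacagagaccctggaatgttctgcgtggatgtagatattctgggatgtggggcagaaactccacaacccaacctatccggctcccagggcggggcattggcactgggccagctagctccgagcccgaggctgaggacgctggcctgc
Il1rl2, chr1:40324339-40324588, plus strand: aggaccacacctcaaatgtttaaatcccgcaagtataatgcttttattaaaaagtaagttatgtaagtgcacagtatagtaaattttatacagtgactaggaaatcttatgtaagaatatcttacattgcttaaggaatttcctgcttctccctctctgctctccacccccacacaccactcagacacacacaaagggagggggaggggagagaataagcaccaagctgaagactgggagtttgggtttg
Il6, chr5:30012864-30013113, plus strand: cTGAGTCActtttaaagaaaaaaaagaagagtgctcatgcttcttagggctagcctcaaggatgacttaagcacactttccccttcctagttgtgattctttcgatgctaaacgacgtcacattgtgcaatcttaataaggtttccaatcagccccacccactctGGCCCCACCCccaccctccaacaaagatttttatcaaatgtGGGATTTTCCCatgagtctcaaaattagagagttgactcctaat
The Il6 window held 3 κB matches, of which GGGATTTTCC and the match on the other strand overlap by all but 1 base, and an AP-1 match at its far end. The second of 2 listed starts of Il1r1 held 1 κB match. The first start of Il1r1, not printed, and the windows of Il1b and Il1rl2 held none of these patterns. The κB pattern is loose, and 48.7% of all 27025 genes with a window held it, against 52.5% of the interleukin genes. An AP-1 match was found in 22% of the interleukin genes and 7.82% of all genes, and a STAT match in 13.6% and 8.13%. Of the 13 genes with a probe higher in IκBα-dn mice at 6 weeks, 11 had a window and 4 of these held a κB match (Il17rc, Il18r1, Il1r1 and Il4i1). These are counts of letters in a short window.

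Values below are log2 differences from a linear model over 21 arrays of 23 mice, with the standard error (SE), and calls were made at an adjusted p under 0.05 from limma, with Benjamini-Hochberg adjustment over all 43379 probes. For single arrays the fitted dye effect was subtracted from the ratio. The probes of 1 gene are numbered from the lowest identifier, and 42 of the genes have 1 probe. Il1b, Il6, Il10, Il18 and Il4 have 10 probes each under 1 accession and Il2 has 11. The arrays differed in spread (SD of the log2 ratios 0.37 to 0.74), a dye effect was found at 51.2% of the interleukin probes, and the array of WT mouse 1 at 3 days against naive WT mouse 1 had the largest residuals. The files do not state the log base or the direction, and the ratios were read as log2 of Cy5 over Cy3. Read this way, the microglia and macrophage marker list stood above naive at 3 days, with 11 of 18 called in IκBα-dn mice (median 1.04) and 7 of 18 in WT mice (median 0.80).

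At 6 weeks after injury, 19 interleukin probes of 13 genes were higher in IκBα-dn cords, set against WT cords, and 4 probes of 3 genes were lower (n = 3 mice per genotype). The probes that were higher made up 11.3% of the interleukin probes, against 7.89% of all probes, and those that were lower 2.38%, against 12.1% of all probes. The median over the interleukin probes was 0.14, against 0.02 over all probes. On the 3 arrays that set both genotypes against each other at 6 weeks, 63 of 168 interleukin probes were positive on every array and 10 negative on every array, against 26% and 26.4% of all probes. In naive cords, at 3 days and at 3 weeks no interleukin probe was called in the limma fit, and neither was any other probe (0% called in each). At an unadjusted p under 0.05 the interleukin probes numbered 46 of 168 at 6 weeks, or 27.4% against 31.5% of all probes. They numbered 4 at 3 weeks (2.38%, against 2.24%), 17 at 3 days (10.1%, against 6.93%) and 5 in naive cords (2.98%, against 2.74%). When the probes of a gene were averaged first, 8 of 76 genes were higher and 2 lower at 6 weeks, or 10.5% and 2.63%, against 7.09% and 11.1% of all genes and unnamed probes. Il1rl2 (0.51 ± 0.19, adjusted p = 0.0737), Il10rb, Il15, Il17rb, Il17rc, Il7r and Il1rapl2 were then no longer called, and Il13ra1, a chain of the IL-13 receptor, was (0.62 ± 0.21, adjusted p = 0.0471).

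Among the ligands, Il1b, the processed pro-inflammatory IL-1, was higher in IκBα-dn cords on 7 of its 10 probes, and all 10 fell between 0.74 and 0.93. On probe 1 the 3 arrays of IκBα-dn against WT mice gave 0.59, 0.97 and 1.14 at 6 weeks, and all lay above the naive arrays of the same comparison, at 0.03, 0.06 and 0.09. The fitted difference was 0.86 ± 0.21, a fold of 1.81 (adjusted p = 0.00836). At 3 days the 2 arrays gave 0.71 and 0.86 on probe 1, but its fitted difference was 0.49 ± 0.23. Over the 10 probes the fitted difference at 3 days had a median of 0.56, and no probe was called. At 3 weeks the 2 arrays gave −0.25 and 0.01 on probe 1. Il15, which sustains natural killer and memory T cells, was 0.44 ± 0.15 higher on probe 1 (adjusted p = 0.0476) and −0.13 ± 0.11 on probe 2. Its 3 arrays on probe 1 gave 0.42, 0.51 and 0.67 at 6 weeks and overlapped with the naive arrays at 0.00, 0.05 and 0.55.

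Il1f9, which encodes the IL-36γ ligand, went the other way and was lower on both of its probes. Probe 2 gave −0.86, −1.29 and −1.33 on the 3 arrays at 6 weeks, against −0.31, −0.27 and 0.29 on the naive arrays, and these ranges did not overlap. The fitted difference was −1.26 ± 0.25 on probe 2 (adjusted p = 0.00214) and −0.79 ± 0.20 on probe 1 (adjusted p = 0.0118). Its neighbours on chromosome 2 in the RefSeq gene order, Il1f6, Il1f5, Il1f10 and Il1rn, gave 0.15, 0.21, 0.10 and −0.09 on their first probes at 6 weeks, and none of them was called.

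**Figure D1:**
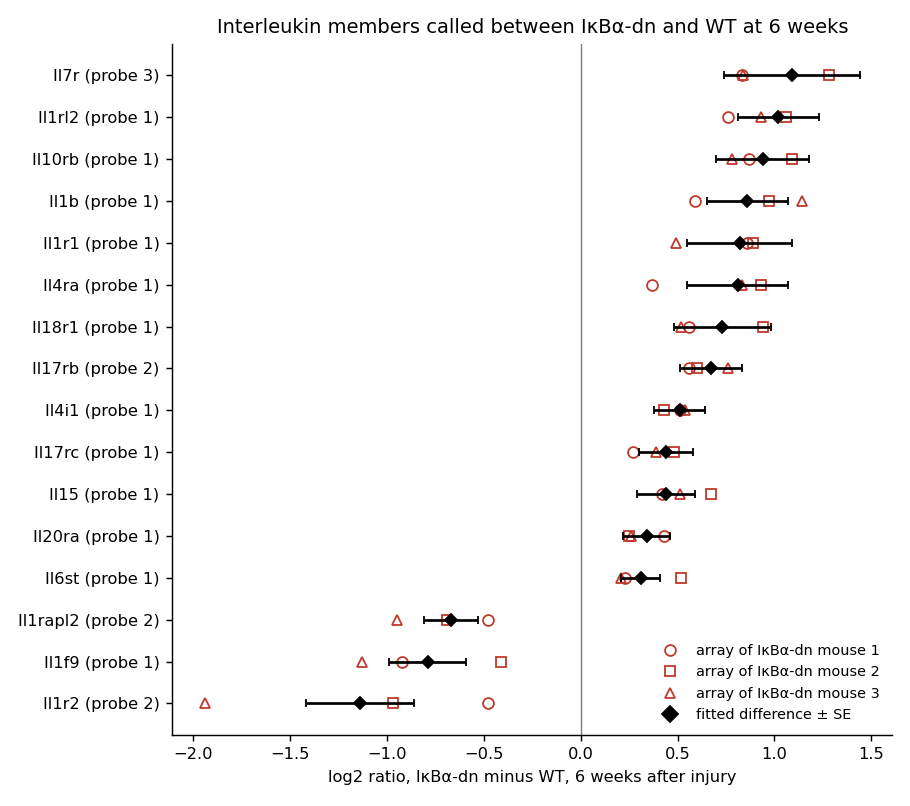
Log2 ratio of IκBα-dn minus WT at 6 weeks (x axis) for the 16 interleukin genes with a called probe, 1 probe per gene (y axis). Red open symbols are the 3 arrays, named by their IκBα-dn mouse, and black diamonds the fitted difference ± SE. All 3 arrays lay on the side of the fitted difference for each of these probes, from Il7r at 1.09 to Il1r2 at −1.14. The probes were picked by calls from a fit that includes these arrays. Of all probes, 26% were positive and 26.4% negative on every one of them.

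Receptor chains were also among the genes that were higher. Il1rl2, the receptor for the IL-36 ligands, gave 0.76, 0.93 and 1.06 on the 3 arrays at 6 weeks on probe 1, against −0.12, 0.10 and 0.22 on the naive arrays, without overlap. Its fitted difference was 1.02 ± 0.21, a fold of 2.03 (adjusted p = 0.00309), while probe 2, listed under another accession, gave −0.01 ± 0.26. Each of the 16 genes with a called probe was taken at its first called one. Of these, Il1rl2 alone stayed called whichever of the 6 mice of the comparison was left out, with differences of 0.94 to 1.15. The further called probes of Il1b and Il1f9 are outside this count. The call of Il1rl2 was lost when both of its probes were averaged. Il1r1, the signalling receptor of IL-1, gave 0.49, 0.86 and 0.89, against −0.76, −0.28 and 0.28 on the naive arrays. Its fitted difference was 0.82 ± 0.27 (adjusted p = 0.0384). Both lie beside each other on chromosome 1 with Il1r2 on one side and, 1 gene further, Il18r1 on the other. Il18r1, the ligand-binding chain for IL-18, was 0.73 ± 0.25 higher at 6 weeks (adjusted p = 0.0471), but it stood at 0.64 ± 0.24 in naive cords too, not called there, where the 3 arrays gave 0.53, 0.67 and 0.94.

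Il1r2, the decoy receptor that binds IL-1 without signalling, was split between its 2 probes, which are listed under 1 accession. Probe 2 gave −0.48, −0.97 and −1.94 on the 3 arrays and was lower in IκBα-dn cords, with a fitted difference of −1.14 ± 0.28 (adjusted p = 0.00913). The naive arrays, at −0.67, −0.24 and 0.33, overlapped with them. Probe 1 gave −0.14, 0.18 and 0.26 and a fitted difference of 0.12 ± 0.14. Without IκBα-dn mouse 3, which gave the lowest ratio, probe 2 was at −0.83 and was not called (adjusted p = 0.101), nor was it without WT mouse 1, on the same array, at −0.72 (adjusted p = 0.16). Il1rapl2, a neuronal relative of the IL-1 receptor accessory protein, was −0.67 ± 0.14 on probe 2 (adjusted p = 0.00243) and 0.12 ± 0.15 on probe 1.

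Of the shared receptor chains, Il10rb, used by IL-10 and IL-22, gave 0.78, 0.87 and 1.09 on the 3 arrays at 6 weeks, against −0.49, −0.29 and 0.15 on the naive arrays. Its fitted difference was 0.94 ± 0.24 on probe 1, a fold of 1.92 (adjusted p = 0.011), and 0.15 ± 0.26 on probe 2. Il4ra, shared by IL-4 and IL-13, gave 0.37, 0.83 and 0.93, against −0.23, −0.07 and −0.03, and was 0.81 ± 0.26 higher (adjusted p = 0.0359). Il7r, the receptor chain for IL-7 that marks lymphocytes, was 1.09 ± 0.35 higher on probe 3 (adjusted p = 0.0394), with 0.83, 0.84 and 1.28 on the arrays, while probes 1 and 2 gave 0.04 ± 0.19 and 0.09 ± 0.22. Il6st, or gp130, the signalling chain of the IL-6 family, moved least of the called genes, by 0.31 ± 0.10 (adjusted p = 0.0385), with 0.21, 0.23 and 0.52 on the arrays. The arrays did not overlap with the naive ones at any of these 4 probes, although for Il7r the highest naive array, at 0.75, came close. These probes, and those of Il1b, Il1f9 and Il1rl2 above, were picked by calls from a fit that includes the same arrays. Their lack of overlap is therefore no separate support.

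The remaining called genes were Il17rb, a receptor for IL-25, at 0.67 ± 0.16 on probe 2, Il4i1, a secreted L-amino acid oxidase, at 0.51 ± 0.13, Il17rc, a chain of the IL-17A receptor, at 0.44 ± 0.14 on probe 1, and Il20ra at 0.34 ± 0.12. Their adjusted p values were 0.00678, 0.0115, 0.0367 and 0.047. Il17rc had 1 of 3 probes called and Il17rb 1 of 2.

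Leaving out single mice showed how close most of these genes lay to the threshold. Il1r1, Il18r1, Il20ra, Il6st and Il7r were no longer called whichever of the 6 mice was left out, with differences of 0.75 to 0.96, 0.66 to 0.84, 0.30 to 0.38, 0.24 to 0.37 and 0.86 to 1.30. Il4ra, Il17rc and Il15 each lost the call in 5 of 6 cases (0.69 to 0.99, 0.40 to 0.53 and 0.34 to 0.52) and Il1b on probe 1 and Il1f9 on probe 1 in 4 (0.71 to 0.97 and −1.01 to −0.58). Il10rb lost it without IκBα-dn mouse 2 (0.86) or WT mouse 2 (0.86), Il4i1 without WT mouse 1 (0.48) or WT mouse 2 (0.55), and Il17rb and Il1rapl2 without WT mouse 1 (0.58 and −0.52). No sign changed in these fits. Without the 3 arrays that hold both genotypes at 6 weeks, no interleukin probe was called in the limma fit, although 803 of all probes were.

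Several well-known members showed no called difference at 6 weeks. Il6 gave −0.01 to 0.33 over its 10 probes, Il18 −0.03 to 0.04 and Il10 0.00 to 0.31. Il18 was the most tightly measured of these, with an SE of 0.08 on probe 1, so that its difference there lay between −0.16 and 0.19 at 95% confidence. Il6ra, the ligand-binding chain for IL-6, gave 0.22 ± 0.12 and 0.04 ± 0.17 on its 2 probes, and Il11, a gp130 ligand, 0.27 ± 0.17. Il33, an alarmin of glia, gave 0.01 ± 0.15, Il1a 0.48 ± 0.18 on probe 1, Il10ra 0.44 ± 0.21 and Il13ra1 0.48 ± 0.24 and 0.76 ± 0.39 on its 2 probes, neither of them called. Il1rl1, Il2rg and Il12b were not analysed here.

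**Figure D2:**
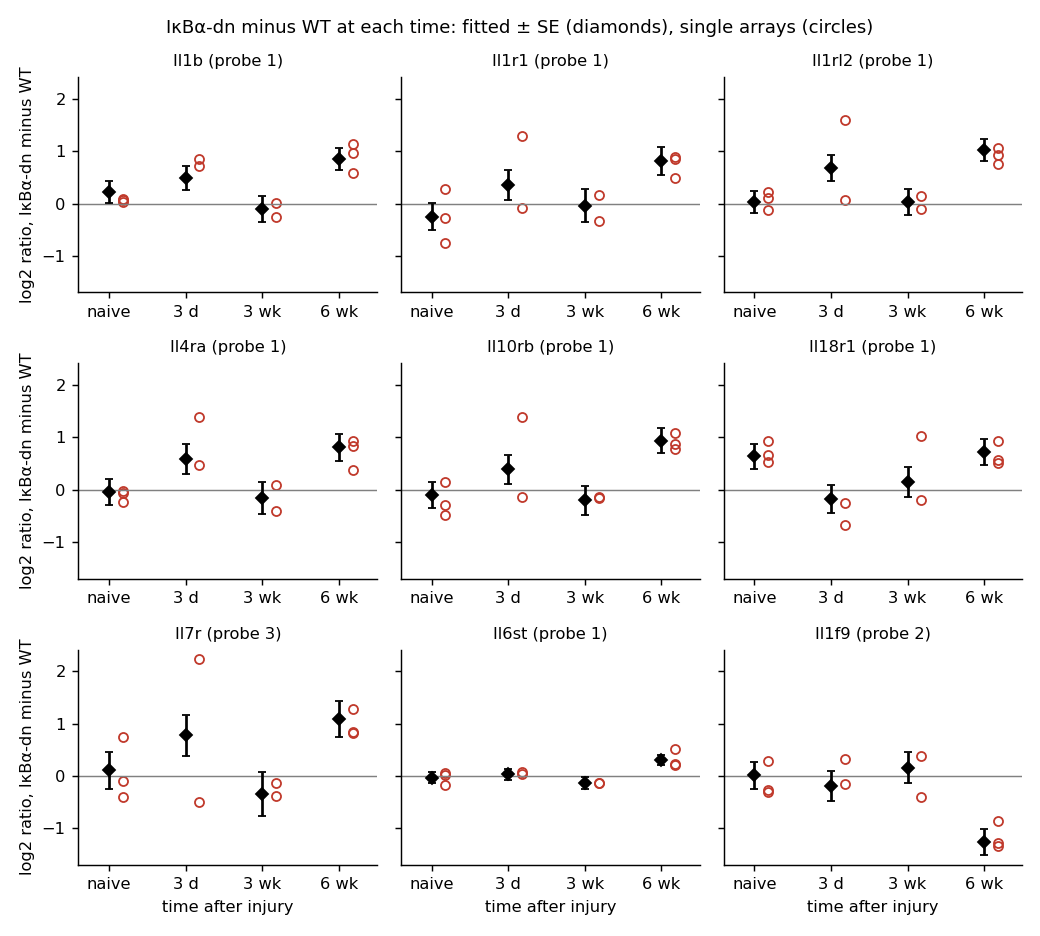
Log2 ratio of IκBα-dn minus WT (y axis) in naive cords and at 3 days, 3 weeks and 6 weeks (x axis) for 9 genes, with fitted differences ± SE as diamonds and single arrays as circles. The 3 arrays at 6 weeks lay above 0 for 8 genes and below 0 for Il1f9, all of them called at 6 weeks in a fit that includes these arrays. The 2 arrays at 3 days lay apart for Il7r (2.23 and −0.49) and Il1rl2 (1.60 and 0.06).

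By family, the counts at 6 weeks on the first probe of each gene, which leaves out the later probes called for Il1r2, Il1rapl2, Il7r and Il17rb, were 1 higher and 1 lower of 10 IL-1 family ligands and inhibitors, 3 higher of 8 IL-1 family receptors, 2 of 13 common gamma chain genes, 2 of 11 in the IL-10 family, 1 of 8 in the IL-6 family and 1 of 11 in the IL-17 family. None of 5 IL-12 family genes and none of 7 type 2 and beta common genes was called. Il4ra, shared by IL-4 and IL-13 and called at 0.81 ± 0.26, is counted outside this type 2 list. Over all probes 7.89% were higher and 12.1% lower. In the list of partners that carry interleukin signals, 7 of 35 were higher and none lower, with a median of 0.27 against 0.02 over all probes. Among them were Stat5a at 0.43 ± 0.10, a STAT of the common gamma chain receptors, Ebi3 at 0.54 ± 0.15, a subunit of IL-27, and Clcf1 at 0.43 ± 0.12, a gp130 ligand. Myd88, the adaptor of the IL-1 receptors, was at 0.49 ± 0.15 (adjusted p = 0.033).

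Cell type markers moved in the same comparison. At 6 weeks, 3 of 18 microglia and macrophage markers were higher in IκBα-dn cords (median 0.37, list medians of 0.21 to 0.48 on the 3 arrays), as were 4 of 11 neutrophil markers (median 0.58, 0.41 to 0.94), 3 of 14 lymphocyte markers (median 0.26, 0.27 to 0.49), 7 of 14 endothelial and mural markers (median 0.50, 0.26 to 0.78) and 4 of 12 meningeal and matrix markers (median 0.58, 0.46 to 1.03). Of 15 neuron markers 8 were lower (median −0.68, −0.90 to −0.59), and of 9 astrocyte markers 1 was higher (median 0.06). No mast cell or basophil marker of 7 was called, and 1 of 9 oligodendrocyte markers was lower (median 0.02). The part of these cells in the interleukin differences was not tested.

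Whether the genotype difference itself changed with time was tested directly. Against naive cords, the difference at 6 weeks was larger for Il1rl2 (0.99 ± 0.29, adjusted p = 0.0425) and more negative for Il1f9 (−1.27 ± 0.34 on probe 2, adjusted p = 0.0268) and Il1rapl2 (−0.63 ± 0.18 on probe 2, adjusted p = 0.0414). These 1 and 2 probes of 168 are 0.595% and 1.19%, against 3.03% of all probes that shifted up and 6.18% that shifted down. Against 3 weeks, 3 probes of Il1b shifted up by 0.98 to 1.12, and 1 probe each of Il1f9, Il1rap and Il1rapl2 shifted down, by −1.41, −0.84 and −0.78. These 3 and 3 probes are 1.79% each, against 2.35% and 6.01% of all probes, so that the interleukin shares did not exceed the background in either test.

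After injury, Il1b rose in both genotypes at each time. In IκBα-dn mice the rises over naive on probe 1 at 3 days, 3 weeks and 6 weeks were 1.32 ± 0.25, 1.34 ± 0.24 and 1.98 ± 0.24 (adjusted p = 0.00352, 0.0189 and 1.81e-05). In WT mice it was 1.06 ± 0.24, 1.68 ± 0.26 and 1.35 ± 0.25 (adjusted p = 0.0348, 0.00743 and 0.0214). The single direct array of each step gave 0.98, 0.86 and 2.14 in IκBα-dn mice and 1.96, 1.5 and 1.21 in WT mice. Of the 10 probes, 7, 7 and 10 were called in IκBα-dn mice and 3, 8 and 6 in WT mice. With the 10 probes averaged, the rise in WT mice at 3 days alone was not called, at 0.87 ± 0.24 (adjusted p = 0.0838). The highest fitted value on probe 1 was that at 6 weeks in IκBα-dn cords and at 3 weeks in WT cords, and the step between 6 weeks and 3 days was called on 1 of 10 probes in IκBα-dn mice and on none in WT mice. With 1 mouse left out in turn, probe 1 lost its call in none of 6 cases at 6 weeks and in 5 of 6 at 3 weeks in IκBα-dn mice, and in 4 of 6, 1 of 5 and 4 of 6 cases at 3 days, 3 weeks and 6 weeks in WT mice. The comparisons share the naive mice of each genotype.

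Il1rl2 was the other gene called at every time in both genotypes, on 1 of its 2 probes. It stood 1.99 ± 0.25, 1.22 ± 0.25 and 2.40 ± 0.25 above naive in IκBα-dn mice at 3 days, 3 weeks and 6 weeks, and 1.34 ± 0.25, 1.22 ± 0.27 and 1.41 ± 0.26 in WT mice. The direct arrays gave 1.90, 1.26 and 2.73 in IκBα-dn mice and 1.80, 0.78 and 1.27 in WT mice. It kept its call whichever mouse was left out at 3 days and 6 weeks in IκBα-dn mice, but lost it in all 6 cases at 3 weeks there and in 4 of 6, 5 of 5 and 5 of 6 cases in WT mice. At 6 weeks the rise was a fold of 5.30 in IκBα-dn cords and 2.66 in WT cords. With both probes averaged, Il1rl2 was called only in IκBα-dn mice at 3 days (0.95 ± 0.22) and 6 weeks (1.36 ± 0.22), and at no time in WT mice.

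**Figure D3:**
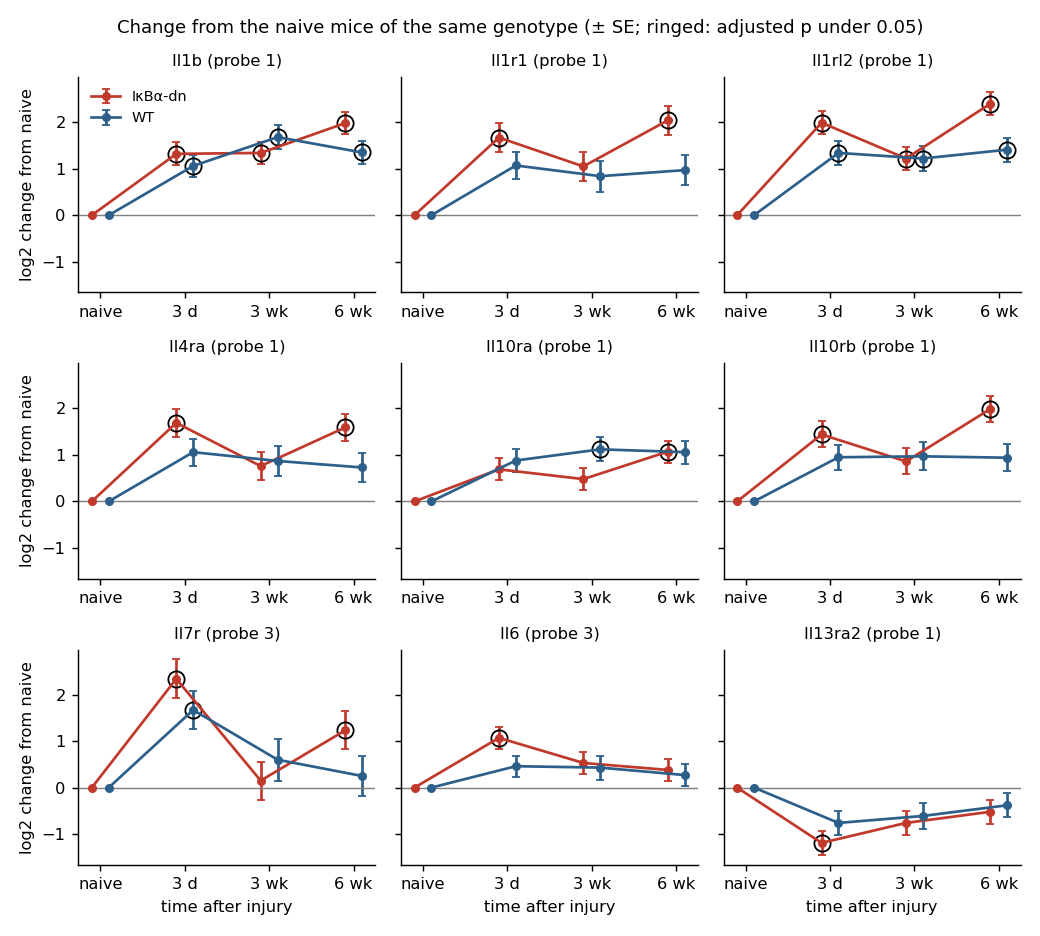
Log2 change from the naive mice of the same genotype (y axis) at each time after injury (x axis) for 9 genes in IκBα-dn (red) and WT (blue) mice, ± SE, with rings on values at an adjusted p under 0.05. Il1r1, Il4ra and Il10rb were ringed in IκBα-dn mice at 3 days and 6 weeks and at no time in WT mice, and Il7r peaked at 3 days in both.

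At 3 days, 22 interleukin probes of 12 genes were higher than in naive cords and 2 lower in IκBα-dn mice, which is 13.1% and 1.19% of the probes, against 5.18% and 1.27% of all probes. In WT mice 7 probes of 5 genes were higher and none lower, or 4.17%, against 1.80% and 0.182% of all probes. With the probes of each gene averaged, 1 of 76 genes was higher in WT mice, or 1.32%, close to the 1.18% of all genes and unnamed probes. In IκBα-dn mice 8 were then higher and 1 lower, or 10.5% and 1.32%, against 4.56% and 1.08%. The largest rise in IκBα-dn mice was that of Il7r on probe 3, at 2.34 ± 0.42 (adjusted p = 0.00252), while its probes 1 and 2 gave 0.28 and −0.11 and the mean of the 3 was 0.84 ± 0.19 (adjusted p = 0.0131). Next came Il1rl2 on probe 1, Il4ra at 1.69 ± 0.30 (adjusted p = 0.00269), Il1r1 at 1.67 ± 0.31 (adjusted p = 0.00361), Il1b on its highest probe, probe 6, at 1.53 ± 0.26 (adjusted p = 0.0019) and Il10rb on probe 1 at 1.44 ± 0.28 (adjusted p = 0.00528). In WT mice the rises included Il7r on probe 3 at 1.67 ± 0.40, Il1rl2 on probe 1 at 1.34 ± 0.25, Il1b on probe 1 at 1.06 ± 0.24, Il17ra on probe 2 at 0.78 ± 0.18 and Il1r2 on probe 1 at 0.76 ± 0.16. The other probes of Il7r gave 0.00 and −0.07 there, the other probe of Il1rl2 −0.05 and that of Il1r2 0.03. With probes averaged, Il7r, Il1rl2, Il1b and Il1r2 were not called in WT mice (0.54, 0.64, 0.87 and 0.40). Il17ra was, at 0.72 ± 0.17 (adjusted p = 0.0495). Il4ra, Il1r1 and Il10rb gave 1.06 ± 0.29, 1.07 ± 0.30 and 0.95 ± 0.27 in WT mice and were not called there. The genotype difference at 3 days was not called for any of them.

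The WT rises at 3 days rested on few arrays. Without the array of WT mouse 1 at 3 days against naive WT mouse 1 no interleukin probe was called in the limma fit, and without that mouse at 3 days Il1b stood at 0.49, Il1r2 at 0.48 and Il17ra at 0.55. The IκBα-dn rise of Il7r was at 1.59 without IκBα-dn mouse 1 of 3 days and at 1.96 without naive IκBα-dn mouse 1, and was called in neither case. The 2 arrays with both genotypes at 3 days set the same gene at 2.23 for that mouse and at −0.49 for IκBα-dn mouse 3. On the same arrays the markers of microglia and macrophages had medians of 1.07 and 0.05.

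Several genes that hold back IL-1, IL-18 and IL-13 were called as well. Il1r2, the decoy, was 1.39 ± 0.16 above naive on probe 1 at 3 days in IκBα-dn mice (adjusted p = 0.000259) and 0.76 ± 0.16 in WT mice (adjusted p = 0.0262). Probe 2 gave 0.03 ± 0.32 in WT mice. The mean of both probes was called in neither genotype, at 0.63 ± 0.18 in IκBα-dn mice (adjusted p = 0.0577) and 0.40 ± 0.18 in WT mice (adjusted p = 0.312). At 6 weeks probe 1 of Il1r2 was below its level at 3 days in IκBα-dn mice, at −0.81 ± 0.16 (adjusted p = 0.00207). Il1rn, the IL-1 receptor antagonist, was 1.29 ± 0.35 higher at 3 days and 1.55 ± 0.35 at 6 weeks in IκBα-dn mice on probe 2, against 0.81 ± 0.34 and 1.13 ± 0.36 in WT mice, where it was not called. Its probe 1, under the same accession, gave 0.12 ± 0.22 and 0.09 ± 0.22 in IκBα-dn mice. Il18bp, which neutralises IL-18, was 0.83 ± 0.20 higher at 3 days and 0.84 ± 0.19 at 6 weeks in IκBα-dn mice on probe 1 of its 2 probes. In WT mice that probe gave 0.67 ± 0.19 and 0.54 ± 0.20 and was not called. With probes averaged, Il1rn (0.70 ± 0.23) and Il18bp (0.48 ± 0.16) were not called at 3 days in IκBα-dn mice. At 6 weeks both means were called there, at 0.82 ± 0.22 and 0.69 ± 0.16. Il13ra2, the decoy receptor of IL-13, was lower instead, by −1.19 ± 0.26 at 3 days in IκBα-dn mice (adjusted p = 0.0109), and stood at −0.76 ± 0.25 in WT mice. Without IκBα-dn mouse 1 of 3 days or naive IκBα-dn mouse 1, which share an array at −1.85, Il13ra2 was at −0.71 and −0.67 and not called.

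Il6, an inducer of acute-phase genes, was higher than naive on 4 of 10 probes at 3 days in IκBα-dn mice, at 0.97 to 1.07 on those probes and 0.14 to 1.07 over all 10. In WT mice the 10 probes gave −0.09 to 0.57 and none was called. The genotype difference at 3 days was positive on all 10 probes, at 0.50 to 0.85, and the 2 arrays gave 0.78 and 1.23 on probe 3, but no probe was called. At 6 weeks the IκBα-dn values had come down to −0.19 to 0.44, and probe 8 was lower than at 3 days, at −0.74 ± 0.23 (adjusted p = 0.0354), as 1 of the 10. Il17ra, the common chain of the IL-17 receptors, was up at 3 days in both genotypes on probe 2, by 0.85 ± 0.19 in IκBα-dn mice and 0.78 ± 0.18 in WT mice, and stood at 0.19 ± 0.19 and 0.02 ± 0.19 at 6 weeks.

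At 3 weeks, 8 interleukin probes were higher in IκBα-dn mice and 10 in WT mice, and none was lower in either. This is 4.76% and 5.95% of the probes, against 0.606% of all probes higher and 0.0277% lower in IκBα-dn mice and 1.01% and 0.0645% in WT mice. All but 1 of the 8 probes in IκBα-dn mice were probes of Il1b, and the remaining one was Il1rl2. In WT mice Il1b gave 8 of the 10, with Il1rl2 and Il10ra, the ligand-binding chain for IL-10, at 1.12 ± 0.26 (adjusted p = 0.0489). Repeated probes thus weigh heavily in these shares. When the probes of a gene were averaged, 1 gene was higher in each genotype. This is 1.32% of the genes, against 0.475% of all genes and unnamed probes in IκBα-dn mice and 0.812% in WT mice.

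At 6 weeks the genotypes parted in the number of calls. In IκBα-dn mice 29 probes of 19 genes were higher and 5 probes of 5 genes lower than naive, or 17.3% and 2.98%, against 11.6% and 14.2% of all probes. In WT mice 7 probes of 2 genes were higher and none lower, or 4.17%, against 0.636% and 0.0922% of all probes. These were probes of Il1b, apart from 1 of Il1rl2. With the probes of each gene averaged, 1 of 76 genes was higher in WT mice, or 1.32%, against 0.528% of all genes and unnamed probes. In IκBα-dn mice 17 were then higher and 2 lower, or 22.4% and 2.63%, against 10.2% and 12.9%. The largest rises in IκBα-dn mice were those of Il1rl2, Il1b (on probe 8, at 2.22 ± 0.22), Il1r1 at 2.04 ± 0.31 (adjusted p = 0.000119), Il10rb on probe 1 at 1.99 ± 0.28 (adjusted p = 6.23e-05) and Il4ra at 1.59 ± 0.30 (adjusted p = 0.000757). Probe 2 of Il10rb gave 0.26 ± 0.30, and the mean of both was 1.12 ± 0.23 (adjusted p = 0.00171). The first 2 were called in WT mice as well, while Il1r1, Il10rb and Il4ra gave 0.97 ± 0.32, 0.94 ± 0.29 and 0.73 ± 0.31 there. In the test of the change in the genotype difference from naive to 6 weeks, Il1rl2 alone of these 5 was called. The differences of Il1rl2, Il1r1, Il10rb, Il4ra and Il1b from naive in IκBα-dn mice stayed called with any 1 of the 6 mice left out. The microglia and macrophage markers were higher in 16 of 18 cases in IκBα-dn mice (median 1.45) and in 6 of 18 in WT mice (median 0.97).

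Some genes were above naive in IκBα-dn cords at 6 weeks and were not called at 3 days. Il16, a chemoattractant for CD4+ cells, was 1.45 ± 0.33 above naive at 6 weeks on probe 1, against 0.64 ± 0.34 at 3 days. Il4i1 was at 0.79 ± 0.15 at 6 weeks and −0.21 ± 0.15 at 3 days, a step of 1.00 ± 0.15 (adjusted p = 0.000297), and in WT mice it was at 0.28 ± 0.16 and −0.06 ± 0.15. Il34, a ligand of the CSF-1 receptor that maintains microglia, was at 0.52 ± 0.13 and −0.01 ± 0.13 in IκBα-dn mice, a step of 0.53 ± 0.13 (adjusted p = 0.0112), and at 0.13 ± 0.14 and 0.02 ± 0.13 in WT mice. Il31ra, a chain of the IL-31 receptor, and Il18r1 rose in IκBα-dn mice between 3 days and 6 weeks by 0.98 ± 0.24 and 1.08 ± 0.29. At 6 weeks Il31ra was 0.70 ± 0.24 above naive (adjusted p = 0.0416). Il18r1 was not called against naive at 6 weeks, at 0.75 ± 0.29 (adjusted p = 0.0635), and stood at −0.32 ± 0.29 at 3 days. Il6st was 0.72 ± 0.12 above naive at 6 weeks (adjusted p = 0.00023) and Il1a, the constitutive IL-1, 0.92 ± 0.21 on probe 1 (adjusted p = 0.00306). Probe 2 of Il1a gave 0.34 ± 0.29 and was not called, and the mean of both was 0.63 ± 0.21 (adjusted p = 0.0403). In WT mice at 6 weeks Il18r1, Il6st and probe 1 of Il1a stood at 0.67 ± 0.30, 0.37 ± 0.12 and 0.64 ± 0.21, none of them called. Of the genes that were lower than naive at 6 weeks, Il1r2 on probe 2 (−1.41 ± 0.33), Il1f9 on probe 2 (−0.84 ± 0.29), Il1rapl2 on probe 2 (−0.73 ± 0.16), Il1rap on probe 5 of 5 (−0.53 ± 0.18) and Il15ra on probe 2 (−0.45 ± 0.13), each had at least 1 further probe that was not called lower. For Il1r2 that was probe 1, called in the opposite direction at 0.58 ± 0.16 (adjusted p = 0.0113).

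Between 6 weeks and 3 days, 10 interleukin probes were higher and 6 lower at 6 weeks in IκBα-dn mice, or 5.95% and 3.57%, against 5.96% and 10.5% of all probes. In WT mice none was called, against 0.118% of all probes, and 14 interleukin probes had an unadjusted p under 0.05, or 8.33% against 11.1% of all probes. The interleukin share of rises was thus close to the background in this comparison. Il4i1, Il18r1 and Il31ra had the largest steps up and Il1r2 and Il1f9 the largest steps down.

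**Figure D4:**
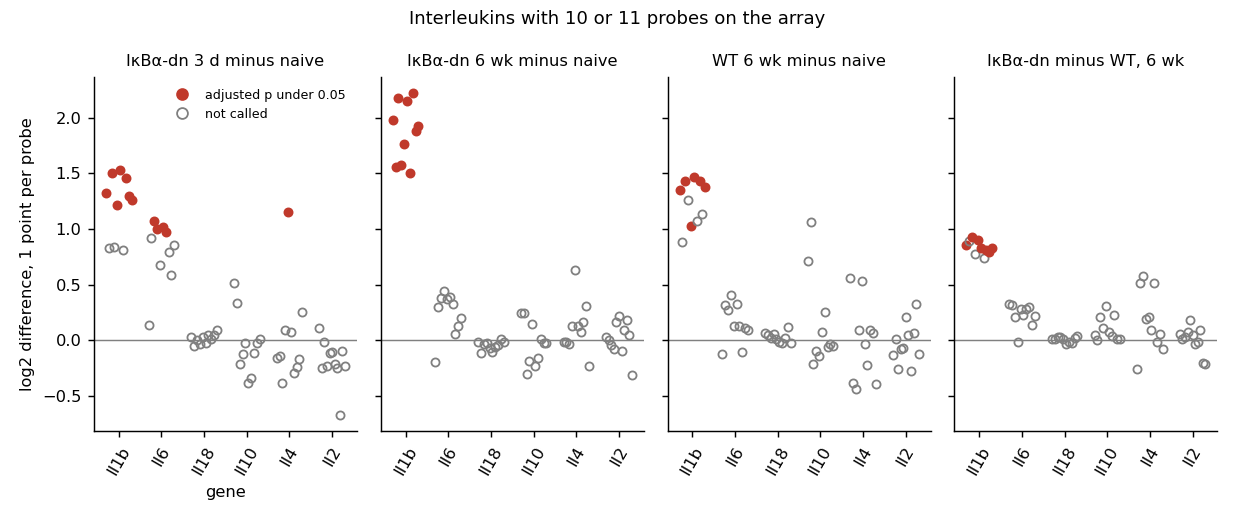
Log2 difference (y axis) on every probe of 6 interleukins with 10 or 11 probes each (x axis), in 4 comparisons, with filled points at an adjusted p under 0.05. Il1b probes formed a cluster well above 0 in each comparison (0.74 to 0.93 between genotypes at 6 weeks), Il18 probes lay within 0.15 of 0, and single outlying points such as that of Il4 at 1.15 stood apart from the other probes of their gene.

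The repeated probes show how far a single probe can be read. In IκBα-dn mice at 3 days, 1 of 10 Il4 probes was called, at 1.15 ± 0.28, while the median of the 10 was −0.15. For Il2, 1 of 11 probes was called between 6 weeks and 3 days in IκBα-dn mice, at 0.85 ± 0.23, and the 11 probes gave −0.31 to 0.22 between 6 weeks and naive. Il10, an anti-inflammatory cytokine, gave −0.38 to 0.52 at 3 days in IκBα-dn mice and −0.10 to 0.96 in WT mice, with no call at any time. Il18 stayed between −0.15 and 0.13 in every comparison with naive in both genotypes. Il13, a ligand of T helper cells, was at −0.09 ± 0.14 at 3 days in IκBα-dn mice and was called at no time, and none of the IL-12 family genes was called against naive at any time.

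In naive cords no member was called between the genotypes. The median over the interleukin probes was 0.05 with a median SE of 0.19. Il1b gave 0.02 to 0.46 over its 10 probes, Il10 −0.02 to 0.80 over its 10, Il1r1 −0.25 ± 0.26, Il4ra −0.05 ± 0.25 and Il10rb −0.10 ± 0.24. Il1f5, the inhibitor of the IL-36 receptor, stood at 0.65 ± 0.21 on probe 1, with 0.10, 1.05 and 1.22 on the 3 naive arrays.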

How the data were processed

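RNA from each mouse was labelled with Cy5 or Cy3 and hybridised in pairs to Agilent Whole Mouse Genome arrays. The deposited values are ratios that the authors normalised in limma, by lowess within arrays and quantile scaling between arrays, and were read here as log2, the scale of limma's ratios, which the files do not state. All 43379 probes were without missing values. No probe brightness or background was used here, so the level and detection of a gene are unknown. Probes with 1 gene symbol numbered 33653, with several 56 and with none 9670. A linear model of group differences with 1 dye term was fitted to 21 arrays in limma 3.58.1 under R 4.3.3, with the correlation between arrays sharing a mouse (share of variance 0.43) and 13 residual degrees of freedom. Moderated p-values were adjusted by Benjamini-Hochberg over all probes. The script was tested on simulated data. Mice are the replicates, and their number limits the precision.

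The members and lists were chosen with earlier results of these data known. Named genes were a core list (29 of 32 measured), members whose first probe was called between genotypes, and the 5 largest rises and 3 largest falls per comparison with naive. Il1f5, Il1f6, Il1f10, Il2 and Il31ra were added after their values were seen. Promoter sequences came from RefSeq (GRCm38.p6), all 76 symbols were matched by gene ID, and Python 3.11.15 and matplotlib 3.10.9 were used. Alternatives covered array dependence, dye, array code, scaling, thresholds, probe averaging and mice left out.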

Additional observations from a re-analysis of the deposited data

Results flagged for a closer look

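The difference between IκBα-dn and WT cords changed with time, by a test of the change itself in limma, at 9 interleukin probe comparisons. Between naive cords and 6 weeks it shifted by 0.99 ± 0.29 for Il1rl2 (adjusted p = 0.0425), by −1.27 ± 0.34 for Il1f9 on probe 2 (adjusted p = 0.0268) and by −0.63 ± 0.18 for Il1rapl2 on probe 2 (adjusted p = 0.0414). Between 3 weeks and 6 weeks it shifted for Il1b by 1.12 ± 0.31, 1.11 ± 0.28 and 0.98 ± 0.29 on probes 3, 5 and 8 (adjusted p = 0.0333, 0.0231 and 0.0486). It shifted down by −1.41 ± 0.38 for Il1f9 (adjusted p = 0.03), by −0.84 ± 0.25 for Il1rap on probe 3 of 5 (adjusted p = 0.0458) and by −0.78 ± 0.21 for Il1rapl2 (adjusted p = 0.0283). From naive to 6 weeks, 0.595% of the interleukin probes shifted up and 1.19% down, against 3.03% and 6.18% of all probes. From 3 weeks to 6 weeks the shares were 1.79% each, against 2.35% and 6.01%. The interleukin shares thus lay below those of all probes in both tests.

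With single mice left out in turn, Il1rl2 lost its call in 10 of 12 cases (0.87 to 1.12), and Il1f9 in 7 of 12 (−1.51 to −1.06) and 9 of 11 (−1.93 to −1.09). Il1rapl2 lost it in 10 of 12 (−0.71 to −0.48) and 7 of 11 (−0.94 to −0.62), Il1rap in 10 of 11 (−1.01 to −0.68), and Il1b on probe 3 in 8 of 11 (0.64 to 1.52). The other probe of Il1rapl2 was not called in either test.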

How the results depend on the processing

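The counts of called interleukin probes were 23 between genotypes at 6 weeks; 24, 8 and 34 in IκBα-dn mice at 3 days, 3 weeks and 6 weeks against naive; 7, 10 and 7 in WT mice; 16 in IκBα-dn mice between 6 weeks and 3 days; and 3 and 6 for the change in the genotype difference from naive and from 3 weeks to 6 weeks. Over all 43379 probes this fit called 7.89% higher and 12.1% lower between genotypes at 6 weeks, and the Results give the shares of the other comparisons. The counts under the alternatives that follow stand without such shares. They do not show whether interleukin probes moved more than other probes under any setting. With arrays taken as independent, the count between genotypes at 6 weeks was 36, that of WT mice at 3 days 12, and those of the changes 12 and 22. With no dye term, WT mice at 3 days had 1 and IκBα-dn mice between 6 weeks and 3 days 6. A dye term for each array code gave 5 for IκBα-dn mice at 3 weeks, 17 for WT mice at 3 days and at 6 weeks, and 1 and 0 for the changes.

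Replicate numbers name different animals at each time and share only a number. Each ratio joins a pair of mice, so the deviations of single mice could not be compared. With the replicate block, IκBα-dn mice at 3 weeks had 1 called probe, WT mice 0, 6 and 1 at 3 days, 3 weeks and 6 weeks, IκBα-dn mice between 6 weeks and 3 days 10, and the change from naive 1.

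Reading the array of conflicting labels as 3 weeks gave 11 in WT mice at 3 days and 13 for the change from 3 weeks. Centring gave 11 in WT mice at 3 days, and so did testing probes with 1 symbol. Scaling gave 4 there, 8 in IκBα-dn mice between 6 weeks and 3 days, and 0 for the change from naive. With only arrays of both genotypes the change from 3 weeks had 0. At an adjusted p under 0.01 the counts were 9 between genotypes, 13 and 3 in IκBα-dn mice at 3 days and 3 weeks, 0, 6 and 0 in WT mice, 4 in IκBα-dn mice between 6 weeks and 3 days, and 0 and 0 for the changes. At 0.001 with a fold over 2, IκBα-dn mice kept 2 at 3 days and 11 at 6 weeks and every other count was 0.

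The moderated F gave 7 between genotypes at 3 days, 17 in IκBα-dn mice at 6 weeks, 15 in WT mice at 3 days and at 6 weeks, 3 in WT mice between 6 weeks and 3 days, and 12 and 15 for the changes. When the probes of a gene were averaged, the probes belonging to a called gene numbered 2 in WT mice at 3 days (1 gene, Il17ra), 8 in IκBα-dn mice between 6 weeks and 3 days (6 genes higher and 1 lower) and 0 for the change from 3 weeks. Averaging put Il17rc at 0.03 in IκBα-dn mice at 3 days, against −0.55 on probe 3. Chosen after seeing the data, a fit without the 3 arrays of both genotypes at 6 weeks gave 0 between genotypes, 3 in IκBα-dn mice at 3 weeks, 0, 6 and 0 in WT mice and 0 for both changes, with Il15 at −0.02, against 0.44. Without the array of largest residuals, likewise chosen, WT mice at 3 days had 0, IκBα-dn mice between 6 weeks and 3 days 29, and the changes 16 each. The causes were not tested.

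With single mice left out, the counts ran over 5 to 18 between genotypes at 6 weeks, 15 to 21, 0 to 6 and 20 to 33 in IκBα-dn mice at 3 days, 3 weeks and 6 weeks, 0 to 19, 0 to 8 and 0 to 5 in WT mice, 7 to 12 and 0 to 3 between 6 weeks and 3 days in IκBα-dn and WT mice, and 0 to 13 and 0 to 6 for the changes. Between genotypes in naive cords, at 3 days and at 3 weeks they were 0 throughout.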
